A study of Homo sapiens with 8 samples.

Results

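The genes described here are 10 integrin subunits of prostate cancer cells: the α subunits ITGA1, ITGA2, ITGA3, ITGA5, ITGA6 and ITGAV and the β subunits ITGB1, ITGB4, ITGB5 and ITGB8. They were taken by gene symbol from a count table of 36474 genes, in which all 10 were present. All 10 also passed the filter on low counts, so each was among the 21071 genes tested. The subunits are surface receptors through which epithelial cells hold on to the extracellular matrix.

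RNA sequencing was performed on LNCaP, a cell line established from metastatic prostate carcinoma, to ask how these cells respond to extracellular asporin (ASPN), a secreted matrix protein. In all groups the cells were kept for 6 to 12 h in medium free of serum and calcium before recombinant ASPN was added at 100 ng/mL. RNA was taken after 0 h (2 libraries), 12 h (3 libraries) or 24 h (3 libraries), and the labels call the libraries biological replicates. The cells were plated as wells of a single line, so the p-values measure the spread between these cultures, and no stroma was present. No 12 h or 24 h library without ASPN was analysed here, so ASPN and further time in the starvation medium cannot be told apart. The other time-0 library beside replicate 1 carries no matching replicate number and is called the unnumbered library.

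Each integrin is a pair of an α and a β chain, and the pairing sets what the receptor binds. Chains α3 and α6 recognise laminins of the basement membrane, α1 and α2 recognise collagens, α5 recognises fibronectin, and αV recognises vitronectin, fibronectin and the latent form of TGF-beta. The β1 chain joins most α chains, whereas β4 pairs with α6 in hemidesmosomes, and β5 and β8 pair with αV. In the normal prostate the laminin receptors sit mainly on basal cells, and tumour cells that have lost their basal neighbours use a changed set of them to adhere and migrate.

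Library totals ran from 73406825 to 96962135 counts. The 9 markers fixed for LNCaP luminal cells (KLK3, KRT8 and others) were all tested, and their summed level was 4816 to 4917 CPM (TMM-scaled counts relative to library size) at 0 h, 5361 to 5400 at 12 h and 5363 to 5545 at 24 h. Of these, 5 by 12 h and 7 by 24 h were higher at an adjusted p of at most 0.05. Among all genes tested 4.85% and 7.82% were higher at these times. At 24 h 1 marker, KRT18, was lower, against 8.49% of all genes. Its means were 433.5 CPM at 0 h and 392.2 CPM at 24 h. Basal markers summed to 0.0681 to 0.248 CPM in every library, and leukocyte markers to 0.0519 to 0.22. Fibroblast and smooth muscle markers summed to 22.9 to 25.9 CPM, of which COL1A1 gave 18.9 to 21.3. Endothelial markers summed to 14.8 to 17.3 CPM at 0 h, 13.5 to 15.2 at 12 h and 11.2 to 13.3 at 24 h, nearly all of it VWF, which was lower at 24 h (log2 change -0.38, past an adjusted p of 0.05), while PECAM1, CDH5 and KDR were at or near 0. The part of these marker shifts in the integrin results was not tested, and in bulk RNA fewer cells of a type and less RNA per cell cannot be told apart.

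LNCaP cells carried 1 dominant integrin chain, several chains at a middle level and some that were barely transcribed. To set genes against each other, CPM was divided by the length of all exons of the gene in kilobases. At 0 h ITGB1 stood at 42.9 ± 2.88 CPM per kb (SD, n = 2), ITGA6 at 9.62 ± 0.568 and ITGA5 at 6.97 ± 0.161. ITGB5 stood at 5.87 ± 0.591 and ITGAV at 4.72 ± 0.212 CPM per kb. ITGA2 followed at 1.32 ± 0.217, ITGA3 at 0.519 ± 0.0115, ITGB4 at 0.317 ± 0.0196 and ITGA1 at 0.161 ± 0.00038 CPM per kb. ITGB8 closed the order at 0.0117 ± 0.0027 CPM per kb, from 7 to 15 counts in a library. Over all 8 libraries neighbours in this order did not overlap, except ITGA5 (6.22 to 7.08 CPM per kb) and ITGB5 (5.45 to 6.95). The order from ITGA6 to ITGAV depends on the length used: per kb of the longest transcript, and as means of 8 libraries, ITGAV was at 10.5, ITGA5 at 9.9, ITGB5 at 9.5 and ITGA6 at 9.4 CPM. The place of ITGA2 above ITGA3 depends on it too, since both had a mean of 1.39 CPM per kb of the longest transcript, with ITGA2 at 1.33 and ITGA3 at 0.928 at 0 h but 1.34 and 1.61 at 24 h.

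**Figure D1:**
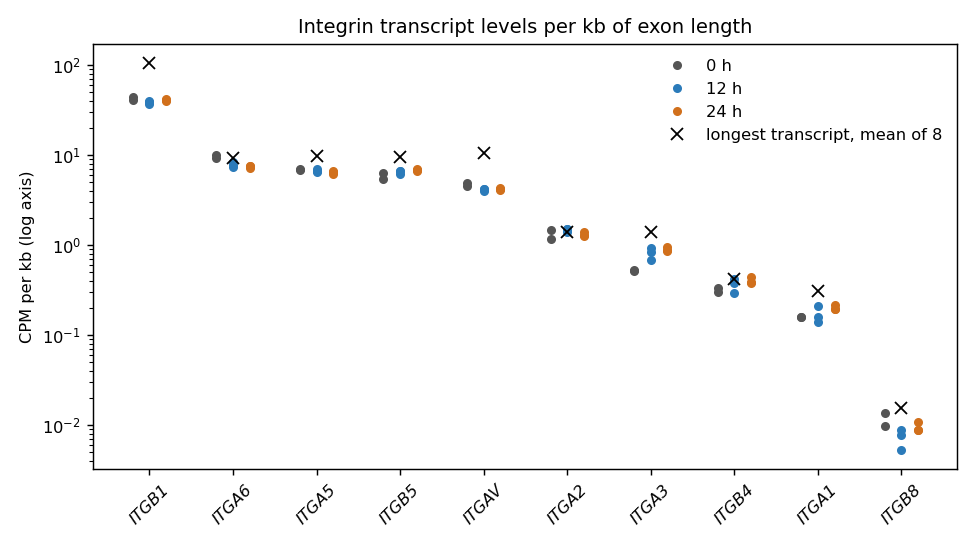
Level of the 10 integrin subunits in each of the 8 libraries, in CPM per kb of exon on a log axis, with libraries marked by time (0, 12 and 24 h) and crosses for the mean level per kb of the longest transcript. ITGB1 lies above every other subunit in every library, and ITGB8 lies below 0.0137.

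The β1 chain made up most of the β transcripts measured. ITGB1 held 83.8% to 88.6% of the CPM per kb of the 4 β members, with group means of 87.3% at 0 h, 84.9% at 12 h and 85.0% at 24 h. Among the 6 α members, ITGA6 held 41.3% at 0 h, 37.1% at 12 h and 36.5% at 24 h. ITGA5 held 29.9%, 31.8% and 31.3% at these times, and ITGAV 20.3%, 19.6% and 20.4%. ITGA3 went from 2.23% at 0 h to 3.85% at 12 h and 4.38% at 24 h. These shares are descriptions and each depends on the exon length of all members in it.

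**Figure D2:**
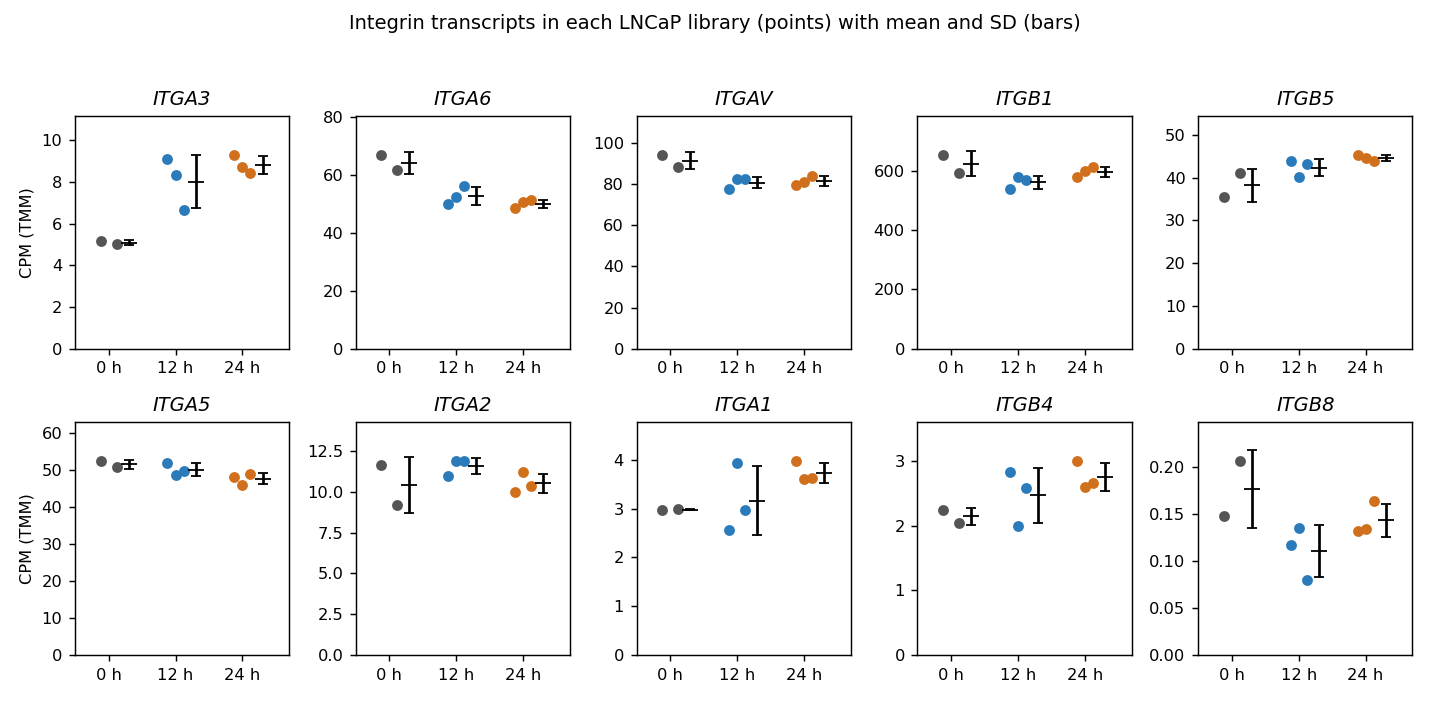
CPM of each integrin subunit in each library by time, with 1 panel per gene and a vertical axis from 0, where points are libraries and bars give the mean with its SD. ITGA3 is at 5.01 to 5.17 at 0 h and at 6.63 to 9.3 later, whereas ITGA6 goes from 61.6 to 66.9 at 0 h to 48.6 to 56.1 later.

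Between 0 and 12 h the laminin receptor chains moved in opposite directions: ITGA3 rose and ITGA6 fell. ITGAV and ITGB1 fell by smaller amounts. The remaining 6 subunits did not pass the test. Thus 4 of 10 subunits had an adjusted p of at most 0.05 in edgeR's quasi-likelihood test, 1 higher and 3 lower, against 11.6% of all genes tested (4.85% higher and 6.75% lower). With a fold change of at least 1.5 as a further condition ITGA3 alone was called, against 1.05% of all genes (0.489% higher and 0.565% lower). The groups did not overlap for 5 of 10 subunits, against 36.9% of all genes, and the median log2 change was 0.023 over the subunits and -0.00069 over all genes. Without time-0 replicate 1 the subunits that passed fell from 4 to 1, ITGA3, and the genes that passed from 2443 to 624.

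The RefSeq sequences (GRCh38.p14) before the transcription starts of the 3 subunits that fell at 12 h are shown because all 3 genes passed as lower at that time, though ITGB1 did not at 24 h. RefSeq windows were found for 8 of the 10 subunits, with ITGA3 and ITGB4 lacking an entry. Each sequence gives the 250 bases before the start listed first, 5′ to 3′ on the gene's strand, and capitals mark motif matches. The ITGA6 window is chr2:172427086-172427335 on the plus strand, the ITGAV window chr2:186589806-186590055 on the plus strand, and the ITGB1 window chr10:32958231-32958480 on the minus strand.
ITGA6: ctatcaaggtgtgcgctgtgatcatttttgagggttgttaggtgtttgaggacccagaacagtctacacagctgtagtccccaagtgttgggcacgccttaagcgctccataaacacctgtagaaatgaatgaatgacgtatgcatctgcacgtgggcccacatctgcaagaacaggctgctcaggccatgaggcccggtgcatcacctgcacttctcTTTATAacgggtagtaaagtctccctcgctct
ITGAV: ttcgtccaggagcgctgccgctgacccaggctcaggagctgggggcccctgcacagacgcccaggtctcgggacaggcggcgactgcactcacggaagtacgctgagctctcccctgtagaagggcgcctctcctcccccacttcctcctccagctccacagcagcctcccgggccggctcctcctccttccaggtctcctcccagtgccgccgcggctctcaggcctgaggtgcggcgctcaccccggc
ITGB1: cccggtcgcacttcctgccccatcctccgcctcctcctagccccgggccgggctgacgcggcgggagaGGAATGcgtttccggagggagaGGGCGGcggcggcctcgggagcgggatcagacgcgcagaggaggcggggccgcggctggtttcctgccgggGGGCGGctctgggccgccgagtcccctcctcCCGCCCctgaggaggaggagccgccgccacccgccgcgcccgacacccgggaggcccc
The 3 windows shown differed in composition, with 50.8% G and C for ITGA6, 70.8% for ITGAV and 78.4% for ITGB1. Searched on both strands were GGGCGG (the GC box, in 42.6% of 35116 RefSeq windows of this length), TATAAA (the TATA box, 10.7%), TGANTCA (AP-1, 6.57%), GGAATG (TEAD, 11.9%) and TGATGNAA (ATF4 and CHOP, 3.14%). The ITGA6 window held 1 TATAAA on the opposite strand, the ITGAV window none of the 5, and the ITGB1 window 3 GC boxes and 1 GGAATG, with no matches overlapping. Each of these genes has another listed start, and the contrast depends on the start taken. At the other start ITGA6 had 71.6% G and C, 3 GC boxes and no TATAAA. ITGAV had 40.8% and none of the 5 motifs there, and ITGB1 41.6%, 3 TATAAA matches and no GC box. These matches describe letters in the windows and show no site in use.

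Between 0 and 24 h ITGA3 was again higher and ITGA6 and ITGAV again lower, and ITGB5 rose. ITGB1, lower at 12 h, did not pass the test at 24 h. In all 4 of 10 subunits reached an adjusted p of at most 0.05 in edgeR, 2 higher and 2 lower, against 16.3% of all genes tested (7.82% higher and 8.49% lower). ITGA3 was the 1 subunit that also changed at least 1.5-fold, against 2.45% of all genes (1.1% higher and 1.35% lower). The groups did not overlap for 7 of 10 subunits, against 43.2% of all genes. The median log2 change was -0.026 over the subunits and -0.0031 over all genes. Without time-0 replicate 1, 2 subunits passed, ITGA3 and ITGA6, and 1597 genes in place of 3437. Both comparisons with 0 h use the same time-0 libraries and are therefore not independent of each other.

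**Figure D3:**
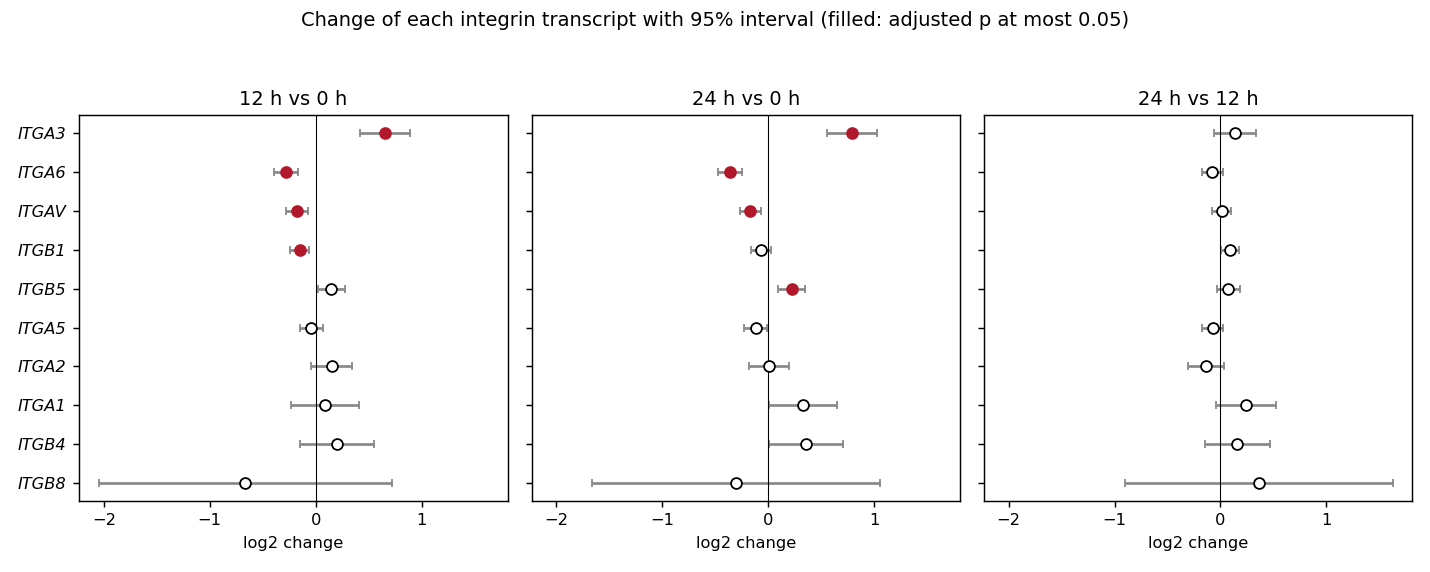
Log2 change of each integrin subunit with its 95% interval from edgeR in the comparisons 12 h against 0 h, 24 h against 0 h and 24 h against 12 h, filled where the adjusted p was at most 0.05. ITGA3 lies at 0.65 and 0.80 against 0 h, ITGA6 at -0.28 and -0.36, and no symbol is filled between 12 and 24 h.

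Between 12 and 24 h none of the 10 subunits passed the test, whereas 2.72% of all genes had an adjusted p of at most 0.05 in edgeR (1.12% higher and 1.61% lower) and 0.18% also changed at least 1.5-fold. ITGB1 was the 1 subunit with an unadjusted p under 0.05. DESeq2 likewise called 0 of 10. The groups did not overlap for 2 of 10 subunits, ITGB1 and ITGB5, against 19.6% of all genes. The median log2 change was 0.081 over the subunits and 0.0035 over all genes.

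ITGA3 encodes the α3 chain, which pairs with β1 as a receptor for epithelial laminins (ENSG00000005884.18, chromosome 17, 50055968 to 50090481, plus strand, GRCh38). Its level was 5.17 CPM in replicate 1 and 5.01 CPM in the unnumbered library at 0 h. At 12 h replicates 1, 2 and 3 had 9.09, 8.33 and 6.63 CPM, and at 24 h they had 9.30, 8.74 and 8.44 CPM. All 6 treated libraries lay above both time-0 libraries, and the lowest of them was replicate 3 at 12 h. The mean went from 5.09 ± 0.113 CPM (SD, n = 2) to 8.02 ± 1.26 (n = 3) and 8.83 ± 0.435 (n = 3). The log2 change was 0.65 ± 0.12 (SE) at 12 h, a 1.57-fold rise with an edgeR adjusted p of 0.000185. At 24 h it was 0.80 ± 0.11, a 1.74-fold rise with an adjusted p of 4.78e-06. From 12 to 24 h the log2 difference was 0.14 with a 95% interval of -0.058 to 0.34 and an adjusted p of 0.578. Both calls against 0 h held in all 14 alternative analyses, with adjusted p from 9.78e-08 to 0.00999 at 12 h and from 1.03e-11 to 0.000614 at 24 h. No exon of another annotated gene overlapped those of ITGA3.

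ITGA6 encodes α6, the other laminin-binding α chain, which pairs with β1 or β4 (ENSG00000091409.16, chromosome 2, 172427354 to 172506459, plus strand). Replicate 1 had 66.9 CPM and the unnumbered library 61.6 CPM at 0 h. Replicates 1, 2 and 3 had 50.03, 52.4 and 56.1 CPM at 12 h and 48.6, 50.7 and 51.2 CPM at 24 h. Every treated library lay below both time-0 libraries. The log2 change was -0.28 ± 0.056 (SE) at 12 h (0.822-fold, edgeR adjusted p 0.000708) and -0.36 ± 0.056 at 24 h (0.78-fold, adjusted p 1.48e-05). Between 12 and 24 h the log2 difference was -0.076 (95% interval -0.18 to 0.027, adjusted p 0.559). The 12 h call was lost without time-0 replicate 1, where the adjusted p was 0.0716 in a range of 5.53e-05 to 0.0716 over 14 alternatives, and the 24 h call held in all 14. Leaving out a time-0 library leaves 1 at that time, which is then assumed to vary like the other groups. Antisense noncoding genes share 2.61%, 1.87% and 0.779% of the exon bases of ITGA6, and whether counting used strand is not stated.

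ITGB4 encodes β4, the α6 partner that links hemidesmosomes to keratins (ENSG00000132470.14, chromosome 17, 75721328 to 75757818, plus strand). It had 2.24 and 2.05 CPM at 0 h, 2.83, 2.00 and 2.58 CPM at 12 h, and 3.00, 2.60 and 2.66 CPM at 24 h. The 24 h libraries lay above those of 0 h, and the 12 h libraries overlapped them. Neither comparison with 0 h passed the test, with log2 differences of 0.20 (95% interval -0.15 to 0.55, edgeR adjusted p 0.544) and 0.36 (0.0095 to 0.71, adjusted p 0.168). With 149 to 273 counts in a library the intervals of ITGB4 were wide.

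ITGAV encodes αV, the chain of the vitronectin receptors and of the receptors that bind latent TGF-beta (ENSG00000138448.12, chromosome 2, 186590056 to 186680901, plus strand). Replicate 1 had 94.2 CPM and the unnumbered library 88.3 CPM at 0 h. At 12 h the replicates had 77.5, 82.4 and 82.3 CPM, and at 24 h they had 79.3, 80.8 and 83.9 CPM. The treated libraries all lay below those of 0 h. The log2 change was -0.18 ± 0.050 (SE) at 12 h with an edgeR adjusted p of 0.0161, and -0.17 ± 0.050 at 24 h with an adjusted p of 0.018. Levels at 12 and 24 h differed by 0.011 on the log2 scale (95% interval -0.080 to 0.10, adjusted p 0.957). At 12 h the call was lost in 3 of 14 alternatives, namely without time-0 replicate 1 (adjusted p 0.304), without 12 h replicate 1 (0.0549) and in a fit to these 2 time points alone (0.0582), with a range of 0.00785 to 0.304. At 24 h it was lost without time-0 replicate 1 (0.246), 24 h replicate 1 (0.0961) or 24 h replicate 2 (0.0704), with a range of 0.00518 to 0.246.

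ITGB5 encodes β5, which joins αV to bind vitronectin (ENSG00000082781.12, chromosome 3, 124761948 to 124901418, minus strand). It had 35.5 CPM in replicate 1 and 41.0 CPM in the unnumbered library at 0 h, in relative terms the widest gap between time-0 libraries among the 5 subunits that passed a test. The 12 h replicates had 43.8, 40.1 and 43.2 CPM, and those of 24 h had 45.3, 44.5 and 43.9 CPM. The 12 h libraries overlapped those of 0 h and the 24 h libraries did not. The log2 change was 0.22 ± 0.061 (SE) at 24 h, a 1.17-fold rise with an edgeR adjusted p of 0.0099, and 0.15 at 12 h (95% interval 0.024 to 0.27, adjusted p 0.121). The time-0 libraries decided both calls. Without replicate 1 the 24 h call was lost (adjusted p 0.391, range 0.00102 to 0.391), and without the unnumbered library the 12 h difference passed (adjusted p 0.0102, range 0.0102 to 0.833).

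ITGB8 encodes β8, an αV partner known for releasing TGF-beta from its latent complex (ENSG00000105855.10, chromosome 7, 20330702 to 20415754, plus strand). Its level was 0.148 and 0.206 CPM at 0 h, 0.117, 0.135 and 0.0802 CPM at 12 h, and 0.132, 0.134 and 0.163 CPM at 24 h. With 7 to 15 counts in a library, the log2 difference at 12 h was -0.67 with a 95% interval of -2.05 to 0.72 (edgeR adjusted p 0.622). The interval at 24 h was -1.66 to 1.06 (adjusted p 0.835). No difference was detectable for ITGB8 at this depth. ACBD5, with 26889 counts over 8 libraries, is 92.2% identical to ITGB8 over 218 bases, and stray reads from it may be counted.

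ITGB1 encodes β1, the shared partner of α1, α2, α3, α5 and α6 (ENSG00000150093.20, chromosome 10, 32887273 to 33005792, minus strand). It had 654 CPM in replicate 1 and 595 CPM in the unnumbered library at 0 h. The 12 h replicates had 538, 579 and 569 CPM, all below 0 h, and those of 24 h had 580, 600 and 612 CPM, which overlapped 0 h. The log2 change was -0.15 ± 0.046 (SE) at 12 h, a level 0.9-fold that of 0 h with an edgeR adjusted p of 0.0247. At 24 h the difference from 0 h was -0.064 (95% interval -0.16 to 0.030, adjusted p 0.408). From 12 to 24 h it was 0.089 (95% interval 0.0052 to 0.17, unadjusted p 0.0381, adjusted p 0.326), so the 24 h libraries lay above those of 12 h by an amount that failed the correction. The 12 h call was lost in 5 of 14 alternatives. The adjusted p was 0.519 without time-0 replicate 1, 0.0799 without 12 h replicate 1, 0.0562 without 12 h replicate 3, 0.0605 without 24 h replicate 2 and 0.0869 in a fit to these 2 time points alone, in a range of 0.00551 to 0.519. The pseudogene ITGB1P1 is 100% identical to ITGB1 over 609 bases and had 1526 counts over 8 libraries, against 399376 for ITGB1, and reads between them may be split. The antisense gene ITGB1-DT shares 2.75% of its exon bases.

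ITGA5 encodes α5, which pairs with β1 as the main fibronectin receptor (ENSG00000161638.11, chromosome 12, 54395261 to 54419266, minus strand). It had 52.3 and 50.6 CPM at 0 h, 51.8, 48.5 and 49.7 CPM at 12 h, and 47.9, 45.9 and 48.8 CPM at 24 h. The 24 h libraries lay below those of 0 h, by a log2 difference of -0.12 (95% interval -0.22 to -0.0060) that had an unadjusted p of 0.0394 and an edgeR adjusted p of 0.154. At 12 h the groups overlapped, with a log2 difference of -0.042 (95% interval -0.15 to 0.067, adjusted p 0.711). For ITGA5 these intervals exclude a 1.5-fold change in either direction.

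The collagen-binding chains α1 and α2 lie side by side on chromosome 5 (ITGA1, ENSG00000213949.10, 52787916 to 52959209, and ITGA2, ENSG00000164171.11, 52989340 to 53094779, both on the plus strand). ITGA2 had 11.6 and 9.22 CPM at 0 h, 11.01, 11.9 and 11.9 CPM at 12 h, and 10.02, 11.2 and 10.4 CPM at 24 h. Replicates 2 and 3 at 12 h lay above the time-0 libraries of ITGA2 and the other 4 later libraries lay within their range. The log2 differences of 0.15 (95% interval -0.041 to 0.34) and 0.011 (-0.18 to 0.20) did not pass edgeR's test (adjusted p 0.353 and 0.966). ITGA1 had 2.98 and 2.99 CPM at 0 h, 2.57, 3.95 and 2.97 CPM at 12 h, and 3.98, 3.62 and 3.62 CPM at 24 h. The 24 h libraries of ITGA1 lay above those of 0 h, with a log2 difference of 0.33 (95% interval 0.0069 to 0.65), an unadjusted p of 0.0456 and an adjusted p of 0.171. At 12 h its log2 difference was 0.089 (-0.23 to 0.41, adjusted p 0.804). The ITGA1 counts are uncertain: PELO, on the same strand with 49175 counts over 8 libraries, shares 499 exon bases with it. The pseudogene RPL17P21, also on the same strand, shares 571 exon bases with ITGA1, and the antisense gene ITGA2-AS1 shares 7.47% of the exon bases of ITGA1.

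At 12 h, at 24 h and between 12 and 24 h, 11.6%, 16.3% and 2.72% of all genes tested passed. These shares include genes with few counts and are not matched in level to the subunits or the lists. Requiring a mean of 100 normalized counts left fewer genes to test, yet more of them passed in each comparison. The share among well-counted genes was therefore higher. Whether a list exceeds genes of similar level was not tested. Related genes were examined in 7 lists, and over all of them 24 genes passed at 12 h, 33 at 24 h and 7 between 12 and 24 h. Without time-0 replicate 1 these counts against 0 h were 7 and 19, and between 12 and 24 h the count was 0 without 24 h replicate 3, 1 without 12 h replicate 3 and 2 without 24 h replicate 2. The other integrin subunits stayed low in LNCaP and none passed the test. Of 16 listed, 15 were in the table and 11 were tested, and ITGA4 was not analysed here. In edgeR 0 of 11 had an adjusted p of at most 0.05 in any comparison, and 1, 1 and 2 had an unadjusted p under 0.05 at 12 h against 0 h, 24 h against 0 h and 24 h against 12 h. ITGAE, the partner of β7 on lymphocytes, was the exception in level, with group means of 24.2, 24.9 and 24.6 CPM at 0, 12 and 24 h. ITGB2, the β chain of leukocytes, had 1.62, 1.98 and 2.02 CPM. ITGA7, a laminin-binding α chain of muscle, had 0.914 CPM at 0 h, 1.45 at 12 h and 1.03 at 24 h, and its log2 difference of 0.67 at 12 h had an adjusted p of 0.0574. ITGA2B, ITGA8, ITGA9, ITGA10, ITGA11, ITGAD, ITGAX and ITGB7 stayed at or below 0.802 CPM in every library. ITGAL, ITGAM, ITGB3 and ITGB6 had at most 2, 3, 5 and 7 counts in a library and were not tested.

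Among proteins that activate integrins or tie them to actin, 10 of 39 tested genes passed at 12 h (7 higher, 3 lower). At 24 h 12 of 39 passed (9 higher, 3 lower). The shares were 25.6% and 30.8%, against the 11.6% and 16.3% of all genes given above, which are not matched for level. The median log2 changes were 0.066 and 0.11. TNS2, a tensin that binds β tails, had 13.2 and 14.5 CPM at 0 h and 22.4, 20.8 and 19.6 CPM at 12 h. Its log2 rise was 0.60 ± 0.076 (SE) at 12 h (edgeR adjusted p 2.1e-06) and 0.44 ± 0.076 at 24 h (adjusted p 7.5e-05). TNS1, another tensin, went the other way and is given here after its values were seen. It changed by -0.61 ± 0.19 at 12 h (adjusted p 0.037) and -0.69 ± 0.19 at 24 h (adjusted p 0.0119). TNS3 and TNS4 passed at neither time. FERMT2, the kindlin that activates β1, had 23.9 and 23.4 CPM at 0 h, 17.7, 15.5 and 17.1 CPM at 12 h and 16.9, 17.5 and 17.1 CPM at 24 h. Its log2 fall was -0.49 ± 0.071 at 12 h (adjusted p 1.1e-05) and -0.46 ± 0.071 at 24 h (adjusted p 1.2e-05). FERMT1, the other kindlin tested, rose by 0.46 ± 0.105 at 24 h (adjusted p 0.00203) and is given here after its values were seen. The adaptors thus moved both ways. KANK2, which binds talin at the rim of adhesions, rose by 0.35 ± 0.067 at 12 h and 0.52 ± 0.067 at 24 h, and the 12 h call was lost without time-0 replicate 1 (adjusted p 0.119, range 5.09e-07 to 0.119). PARVB, a parvin of the ILK complex, rose by 0.33 ± 0.054 at 24 h (adjusted p 2.86e-05). Between 12 and 24 h 3 of 39 passed, or 7.69% against 2.72% of all genes, among them TLN1 (talin), which fell by 0.21 ± 0.045, and RAP1A, which recruits talin and rose by 0.20 ± 0.053. Both of these calls were lost without 12 h replicate 3, 24 h replicate 2 or 24 h replicate 3, and that of RAP1A also without 12 h replicate 1, with adjusted p over 15 alternatives from 0.000117 to 0.1 for TLN1 and 0.007 to 0.221 for RAP1A.

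Of the matrix proteins that integrins bind, 25 of 38 listed were tested. Of these, 3 passed at 12 h (2 higher, 1 lower) and 6 at 24 h (4 higher, 2 lower). The shares were 12.0% and 24.0%, against 11.6% and 16.3% of all genes, so the 12 h share lay near that of all genes. The median log2 changes of the 25 genes were 0.038 and 0.030. LAMA3, the α chain of the epithelial laminin that α3 and α6 bind, had 19.6 and 19.2 CPM at 0 h, 23.8, 22.8 and 23.1 CPM at 12 h and 24.5, 25.5 and 24.4 CPM at 24 h. It rose by 0.26 ± 0.065 on the log2 scale (edgeR adjusted p 0.00596) and by 0.36 ± 0.065 (adjusted p 0.000125), and the 12 h call was lost without time-0 replicate 1 (adjusted p 0.0563, range 0.000971 to 0.0563). AGRN (agrin, a basement membrane proteoglycan) rose by 0.28 ± 0.049 at 12 h and 0.37 ± 0.049 at 24 h. THBS1 (thrombospondin, a matricellular protein) had 16.7 and 15.8 CPM at 0 h, 10.3, 9.69 and 13.5 CPM at 12 h and 9.37, 11.1 and 10.3 CPM at 24 h. Its log2 change was -0.54 ± 0.10 at 12 h (adjusted p 0.00042) and -0.67 ± 0.10 at 24 h (adjusted p 1.36e-05), the 1 ligand that also changed at least 1.5-fold. Between 12 and 24 h 0 of 25 passed in edgeR, against 2.72% of all genes, with 4 at an unadjusted p under 0.05.

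Other matrix receptors and membrane partners of integrins were mostly higher where they passed. At 12 h 7 of 19 passed (5 higher, 2 lower) and at 24 h 11 of 19 (9 higher, 2 lower). The shares were 36.8% and 57.9%, against 11.6% and 16.3% of all genes. The median log2 changes were 0.088 and 0.21. SLC3A2, the heavy chain of CD98 that associates with β1 tails, had 337 and 334 CPM at 0 h, 267, 250 and 265 CPM at 12 h and 223, 242 and 225 CPM at 24 h. It fell by 0.37 ± 0.045 on the log2 scale at 12 h (edgeR adjusted p 1.47e-06) and by 0.54 ± 0.045 at 24 h (adjusted p 1.99e-10). SDC1 and SDC2, syndecans that bind matrix through heparan sulphate, passed as higher at 12 and 24 h, whereas SDC3 and SDC4 passed at 24 h and not at 12 h. SDC1 rose by 0.32 ± 0.065 and 0.51 ± 0.065 at 12 and 24 h, the 12 h call being lost without time-0 replicate 1 (adjusted p 0.0699, range 7.73e-05 to 0.0699). SDC2 had 11.4 and 12.3 CPM at 0 h and 18.1, 16.5 and 19.97 CPM at 24 h, a log2 rise of 0.62 ± 0.083 (adjusted p 1.49e-06). CD9, a tetraspanin that sits beside β1 integrins, rose by 0.21 ± 0.044 at 12 h. From 12 to 24 h 4 of 19 passed (3 higher, 1 lower), or 21.1% against 2.72% of all genes. Among them were SDC2 (0.32 ± 0.072), SLC3A2 (-0.18 ± 0.041) and BCAM, a laminin receptor (0.21 ± 0.051). Without 24 h replicate 3 all of these named calls were lost, without 24 h replicate 1 those of SDC2 and SLC3A2, without 12 h replicate 3 those of SLC3A2 and BCAM, and without 24 h replicate 2 that of BCAM, with adjusted p from 0.00129 to 0.143 for SDC2, 0.000795 to 0.123 for SLC3A2 and 0.00406 to 0.125 for BCAM.

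Genes of 3 further lists changed in small numbers. Of 5 hemidesmosome partners tested, ERBIN, which binds β4, was lower at 12 h (log2 change -0.22 ± 0.053 SE, edgeR adjusted p 0.00537) and none passed at 24 h, with 2 at an unadjusted p under 0.05. The list for the latent TGF-beta complex, which αV integrins bind, took in the LTBP genes by family name. Whether each belongs to the complex was not tested. Of its 8 genes tested in edgeR, 0 passed at 12 h, with 2 at an unadjusted p under 0.05. At 24 h 2 rose: LTBP2 by 0.39 ± 0.089 (adjusted p 0.00162) and LTBP3 by 0.20 ± 0.055 (adjusted p 0.00818). Of 16 genes that carry integrins through endosomes, 3 were lower at 12 h and 2 at 24 h. As shares of the genes tested, 20% and 0% of the hemidesmosome partners, 0% and 25% of the latent TGF-beta genes and 18.8% and 12.5% of the endosomal genes passed at 12 and 24 h, against 11.6% and 16.3% of all genes. RAB5A, the GTPase of early endosomes, changed by -0.32 ± 0.058 and -0.25 ± 0.058, and RAB21, which binds α tails, by -0.21 ± 0.054 at 12 h. DAB2, an adaptor for endocytosis of β1, changed by -1.35 ± 0.41 and -1.38 ± 0.41 from 15 to 62 counts in a library. Most of these calls rested on time-0 replicate 1: without it the adjusted p at 12 h was 0.268 for ERBIN, 0.0535 for RAB5A, 0.252 for RAB21 and 0.34 for DAB2, and at 24 h 0.134 for RAB5A, 0.232 for DAB2 and 0.261 for LTBP3. The 24 h call of LTBP2 was lost without the unnumbered library (0.0792), that of LTBP3 also without 24 h replicate 1 (0.0514), the 12 h call of DAB2 also without 12 h replicate 2 (0.0585) or 3 (0.112), and its 24 h call also without 24 h replicate 2 (0.0522). The lowest adjusted p over the alternatives was 0.00131 for ERBIN, 3.08e-06 for RAB5A, 0.00332 for RAB21 and 0.0267 for DAB2 at 12 h, and 0.000197 for RAB5A, 0.0129 for DAB2, 0.000767 for LTBP3 and 0.000122 for LTBP2 at 24 h. In no comparison of 24 h with 12 h did a gene of these lists pass in edgeR, with 1 of 5, 2 of 8 and 3 of 16 at an unadjusted p under 0.05.

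**Figure D4:**
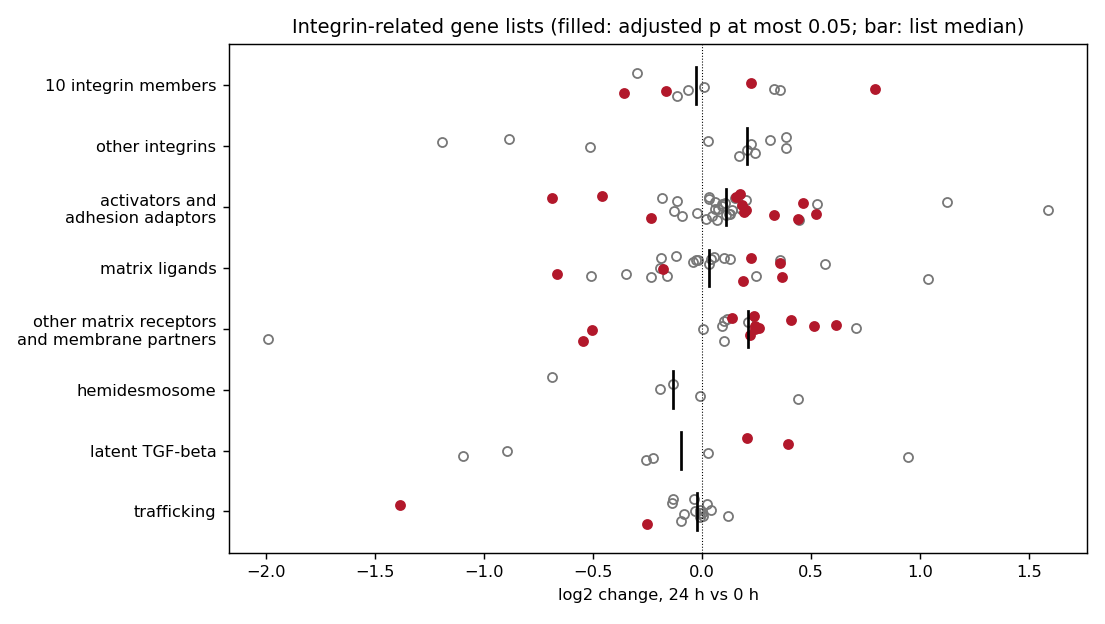
Log2 change from 0 to 24 h of each tested gene in the integrin subunits and the 7 related lists, filled where the edgeR adjusted p was at most 0.05, with a bar at the median of each list. The membrane partners have the median of 0.21 with 11 of 19 filled, and the other integrin subunits have 0 of 11 filled. Of all genes tested 16.3% passed at 24 h, a share not matched to the lists for level.

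The genes whose course over the 8 libraries lay nearest to that of ITGA3 were MAP3K6, DEGS2 and IKBKE, out of 12572 genes whose normalized counts averaged 100 or more. Likeness was the root mean square difference of log2 CPM after centring each gene on its mean, and it was 0.103, 0.105 and 0.11 for these genes. MAP3K6, a stress kinase of the MAP kinase cascade, had group means of 7.81, 12.3 and 12.96 CPM at 0, 12 and 24 h. DEGS2, a sphingolipid desaturase, had 1.51, 2.2 and 2.32 CPM, and IKBKE, a kinase of innate immune signalling, had 2.09, 3.43 and 3.42 CPM. For ITGB1 the nearest genes were PRKAR1A (0.0156), CUL3 (0.0165) and TMEM165 (0.0169). PRKAR1A, a regulatory subunit of protein kinase A, had 206, 189 and 198 CPM, CUL3, a ubiquitin ligase scaffold, 86.3, 77.6 and 83.6 CPM, and TMEM165, a Golgi membrane protein, 83.2, 76.7 and 80.6 CPM.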

How the data were processed

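LNCaP libraries were prepared with Illumina TruSeq mRNA chemistry and sequenced as paired 150-base reads. The authors trimmed adapters with Cutadapt, aligned reads to GRCh38 with STAR, counted them per GENCODE gene with featureCounts and removed a time-0 library on quality grounds. The deposited values are raw counts per gene. The options for strand, pairs and multimapping reads are not given in the sources used here. Of the 36474 genes, 30996 had the same versioned identifier in GENCODE 44, all with the same coordinates. Exon lengths and overlaps came from GENCODE 44, a later release than the authors name for their processing. The number of per-sample columns left unused was 0.

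Counts were tested with edgeR 4.0.16 in R 4.3.3 (glmQLFit, robust, and glmQLFTest, F test, TMM, filterByExpr, 1 coefficient per time point, 8 libraries), with Benjamini-Hochberg adjustment over 21071 genes. Genes passed at an adjusted p of at most 0.05, and were counted as called genes with a fold change of at least 1.5 in addition, the thresholds of the study. Where the call of a named gene is said to be held, lost or gained, the adjusted p alone is meant. Standard errors came from the log2 change and the F statistic. The biological coefficient of variation was 5.59%. Chi-square per degree of freedom between replicates was 5.32 to 15.2, so each library was counted once. In simulated counts (20495 genes tested) 75.3% of 97 genes changed 2-fold and 58.6% of 99 changed 1.5-fold passed between 24 and 0 h, with 9 of 20299 unchanged genes. The counts were drawn from the negative binomial model of the same fit, so few unchanged genes passing was largely built in. The simulation held no deviation of a whole library and does not cover such a deviation.

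Members and lists were chosen with earlier results of these data known. Named were all 10 members, the other integrin subunits tested, the 3 genes with the smallest p among those passing in each list and comparison, and the 3 genes most like the member with the smallest p. A gene that this rule picks is left out of the text. Alternatives were upper-quartile or RLE normalization, a filter omitted or stricter (average of 100 normalized counts), DESeq2 1.42.0, fits restricted to 2 time points, the replicate block, the block on column numbers (added after seeing the data), transcript length, and leaving out each library. Intervals cover the spread between libraries, and counting limits only counting error.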

Additional observations from a re-analysis of the deposited data

How the results depend on the processing

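Leaving out each library in turn gave 78 to 300 called genes at 12 h (222 in the analysis as reported), 265 to 567 at 24 h (516) and 16 to 46 between 12 and 24 h (38). By adjusted p alone the ranges were 624 to 2761 (2443), 1597 to 4047 (3437) and 222 to 730 (574) genes, with 7 to 29, 19 to 40 and 0 to 10 genes of the related lists. The lowest values came without time-0 replicate 1 in both comparisons with 0 h, and between 12 and 24 h without 24 h replicate 1 (16 called genes) or 2 (16 called, 222 by adjusted p), while leaving out 12 h replicate 3 gave 20 and 257. Of the 10 integrin subunits 1 to 5 passed at 12 h and 2 to 4 at 24 h, with 1 at 12 h and 2 at 24 h without time-0 replicate 1. Requiring a mean of 100 normalized counts left 140 called genes at 12 h and 322 at 24 h, and a fit to 0 and 12 h alone left 2 subunits.

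In leave-one-out fits the log2 difference changed sign for subunits whose difference was not past the threshold: ITGA1 at 12 h (-0.11 to 0.22), ITGA2 at 24 h (-0.14 to 0.19), ITGB1 at 24 h (-0.13 to 0.0021) and ITGAV between 12 and 24 h (-0.023 to 0.028). Per kb of the longest transcript the mean levels were 105 for ITGB1, 10.5 for ITGAV, 9.9 for ITGA5, 9.5 for ITGB5, 9.4 for ITGA6, 1.39 for both ITGA2 and ITGA3, 0.423 for ITGB4, 0.31 for ITGA1 and 0.0155 CPM for ITGB8, since the exons of all isoforms together are longer than 1 transcript. The log2 changes of named genes were also tallied over the alternatives other than the block on column numbers. Of these, 820 kept direction and side of the threshold, 47 lost a call, 1 gained one and 6 changed sign.

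The replicate number as a block could be fitted between 12 and 24 h, where 865 genes passed by adjusted p, 12 genes of the lists and 0 subunits. Deviations of libraries with the same number correlated at 0.102, 0.0272 and 0.0292, and not every library correlated best with its own number. Correlations this weak cannot settle whether libraries with the same number were paired. The labels number the time-0 libraries 1 and 2 and the columns 1 and 3, so only number 1 is shared with certainty. A block on the column numbers over all 8 libraries, chosen after seeing the data, passed 2114, 2936 and 476 genes at 12 h, at 24 h and between them, with 4, 4 and 0 subunits and each subunit keeping its call. It turned the sign of ITGA2 at 24 h (-0.020) and lost the 12 h call of DAB2 (adjusted p 0.0518). Time-0 and later libraries with the same column number correlated at -0.149 to -0.0629. At this depth ITGB8, with 7 to 15 counts, and ITGB4 and ITGA1, with at most 362, carry wide intervals.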

Other observations

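The level of ITGA3 relative to ITGA6, both per kb of exon, separated the time-0 libraries from all others. This follows from the levels of ITGA3 and ITGA6 given above and is no further result. The ratio was 0.0526 in replicate 1 and 0.0554 in the unnumbered library at 0 h, 0.124, 0.108 and 0.0805 at 12 h, and 0.130, 0.117 and 0.112 at 24 h. Group means were 0.054 ± 0.002 (SD, n = 2), 0.104 ± 0.022 (n = 3) and 0.12 ± 0.0093 (n = 3). ITGB4 relative to ITGA6 had means of 0.0329, 0.0463 and 0.0543, and ITGB5 relative to ITGAV 1.25, 1.56 and 1.63. These pairs were chosen after their values were seen, so they are given as descriptions with no test.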
